A study of Mus musculus with 6 samples.

Results

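The genes described here are the histone genes of the mouse genome that carry a Hist1h, Hist2h, Hist3h or Hist4h symbol, together with H1f0. Of the 32285 genes listed in the deposited tables, 68 rows matched by symbol, and 63 of these had at least 20 unique molecular identifiers (UMIs, counted transcripts) over the cells to which the authors gave a class. Members were thus selected on their symbol and on this UMI total, and the comparison of day 21 with day 1 was the first one read for them. Just inside the limit lay Hist1h2ah with 33 UMIs, Hist1h3h with 33 and Hist1h1t with 36. Just outside lay Hist2h2aa2 with 19 and Hist1h2bq with 8, while Hist1h4m and Hist1h2aa had 1 UMI each and Hist1h2ba had 0. The 63 members comprised 7 linker (H1), 16 H2A, 16 H2B, 12 H3 and 12 H4 genes. They are usually described as genes without introns, and in the annotation this held for 59 of them. Hist1h2bc, Hist1h2be, Hist1h2bp and Hist1h2br had annotated introns, and the introns of Hist1h2be spanned 33009 bases.

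RNA was counted in single cells of whole lung from wild-type (WT) C57BL/6N mice, dissociated and sorted for live cells. There were 6 libraries, each a pool of 3 mice of 1 sex, with 1 female and 1 male library in each of 3 conditions. The first condition was postnatal day 1 in room air (21% oxygen), the second postnatal day 21 in room air. The third was postnatal day 21 in mice that had breathed 95% oxygen between days 1 and 5 and then returned to room air, a model of neonatal hyperoxic lung injury. The study asked how the lung recovers from that injury and whether sex modifies the recovery. Values for all libraries are given below in a fixed order: day 1 female and male, day 21 room air female and male, day 21 hyperoxia female and male. Levels are given as CPM, a gene's UMIs scaled to the total UMIs of the cells summed, which does not correct for gene length.

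A library held 122173482 to 163649658 UMIs and 7074 to 11543 cells with a class, and the median cell had 8329 to 9703 UMIs. Between 22% and 32.8% of barcodes had no class from the authors, and library pairs shared 9 to 37 cell barcodes. Markers of endothelium, epithelium, immune cells and stroma were each highest in the classes of their own lineage. The day 1 tables came from an earlier version of the counting software than the day 21 tables, so age and software version cannot be told apart. The versions may differ in whether reads from introns are counted, which the sources used here do not state.

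Histones are the proteins around which DNA is wound. H2A, H2B, H3 and H4 form the core particle, and H1 binds the linker DNA between particles. The clustered genes are the replication-dependent set: most are transcribed when DNA is copied, and their messages normally end after a short stem-loop bound by the protein Slbp instead of in a poly(A) tail. Libraries of this kind are primed on poly(A), so they see only messages that have a tail or an internal run of A. H1f0 is a linker histone outside the clusters, known to be polyadenylated and to rise in cells that stop dividing.

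The stem-loop is shown for members with many UMIs, because it is what sets these messages apart from others. The capitals mark the 16-base element as it lies in the annotated transcript after the stop codon, with the flanking bases in lower case (GRCm38).
Hist1h1e: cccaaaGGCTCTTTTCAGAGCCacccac
Hist1h1c: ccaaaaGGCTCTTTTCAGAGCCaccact
Hist3h2a: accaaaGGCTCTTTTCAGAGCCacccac
Hist1h4d: accaaaGGCCCTTTTCAGGGCCactacc
Hist1h4h: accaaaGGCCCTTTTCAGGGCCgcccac
Hist1h3e: caaaacGGCTCTTTTAAGAGCCacctcc
Hist1h2ae: aacaaaGGCTCTTTTCAGAGCCattcac
Hist1h2ap: aaaaaaGGCTCTTTTCAGAGCCatc

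These elements lie on chr13:23621782-23621797 (Hist1h1e, minus strand), chr13:23739512-23739527 (Hist1h1c, plus), chr11:58955172-58955187 (Hist3h2a, plus), chr13:23581950-23581965 (Hist1h4d, plus), chr13:23531458-23531473 (Hist1h4h, plus), chr13:23561903-23561918 (Hist1h3e, minus), chr13:23570668-23570683 (Hist1h2ae, minus) and chr13:21833029-21833044 (Hist1h2ap, minus). The pattern searched was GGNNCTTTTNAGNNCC on the transcript's own strand. It was present in 42 of the 50 members with at least 30 annotated bases after the stop codon, against 0.128% of the other protein-coding genes. The other 13 members, Hist1h1b among them, had fewer than 30 annotated bases there and could not be read. The form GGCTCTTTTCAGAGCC occurred in 25 members, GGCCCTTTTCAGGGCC in 6 and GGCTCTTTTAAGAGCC in 6. H1f0, Hist1h2bc, Hist1h2br and Hist2h2be have long annotated ends without a match to these letters.

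In 22 of the 42 members with the element, the annotated transcript ran at least 100 bases past it, as in Hist1h1e (1153 bases), Hist1h1c (840), Hist1h4d (770) and Hist3h2a (1643). The median UMI total of these 22 was 2059.5. In the other 20 the transcript ended sooner, within 3 bases in Hist1h2ap, and the median was 945 UMIs. Across the 42 members the UMI total and the bases past the element had a Spearman rho of 0.30, given as a description.

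Promoters also differed among members. Within the 300 bases from 250 before to 50 after the start site (RefSeq, GRCm38.p6, 57 members matched), CCAAT on either strand was present in 48 members, or 84.2%, against 37.4% of 32851 promoters. TATAAA was present in 31 (54.4%, against 13.6%). ATTTGCAT, the octamer known from H2B promoters, was present in 11 (19.3%, against 1.74%). These were 6 of 16 H2A, 5 of 14 H2B and 0 of 27 H1, H3 and H4 members. Some H2A and H2B genes, such as Hist1h2ae and Hist1h2bg, lie head to head and share part of the window. Because either strand was searched, 1 octamer may count for both genes of such a pair. The 250 bases before the start are shown for the pair of linker histone genes with the most UMIs, with CCAAT and TATAAA in capitals. Hist1h1e lies at chr13:23622559-23622808 on the minus strand and H1f0 at chr15:79027962-79028211 on the plus strand. A CCAAT begins 52 and a TATAAA 27 bases before the Hist1h1e start (-52 and -27), and the H1f0 window holds none of the 3 motifs. The GENCODE start of H1f0 lies past this window, at chr15:79028450, and the bases just before it were not searched.
Hist1h1e: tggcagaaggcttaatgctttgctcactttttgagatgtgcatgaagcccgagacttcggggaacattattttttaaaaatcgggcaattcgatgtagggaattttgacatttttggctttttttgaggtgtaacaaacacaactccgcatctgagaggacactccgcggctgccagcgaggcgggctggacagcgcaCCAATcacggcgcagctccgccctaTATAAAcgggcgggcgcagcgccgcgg
H1f0: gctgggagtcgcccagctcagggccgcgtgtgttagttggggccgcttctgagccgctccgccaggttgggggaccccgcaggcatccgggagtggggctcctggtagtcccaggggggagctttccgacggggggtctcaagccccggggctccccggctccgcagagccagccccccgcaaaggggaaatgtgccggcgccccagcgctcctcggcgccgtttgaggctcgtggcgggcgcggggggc

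Over all cells with a class, members summed to 1130 and 1288 CPM at day 1, 523 and 476 CPM in room air at day 21, and 498 and 499 CPM after hyperoxia. Each day 1 library lay above every day 21 library, and the day 21 libraries lay close together. Linker histones gave most of the UMIs at day 1, with 623 and 691 CPM, and 187 to 193 CPM in the 4 day 21 libraries. The H2A genes summed to 189, 243, 110, 71.2, 101 and 84.3 CPM in the fixed order, and the H4 genes to 160, 178, 116, 123, 111 and 117 CPM. The H2B genes were at 122 and 124 CPM at day 1 and at 78.6 to 90.6 CPM at day 21. The H3 genes were lowest throughout, with 36.8, 51.0, 19.9, 14.95, 17.6 and 13.7 CPM.

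The 8 members with the most UMIs held 76.2% of the 447188 UMIs. Hist1h1e, a replication-dependent linker histone (chr13:23620629-23622558), was at 276, 322, 67.4, 86.4, 77.3 and 86.6 CPM. H1f0, the replication-independent linker histone, was at 158, 142, 47.3, 40.8, 43.4 and 49.0 CPM. Hist1h1c, another linker histone, was at 102, 102, 38.8, 45.4, 38.7 and 38.3 CPM. In all 3 the day 1 libraries stood clear of the day 21 libraries.

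Hist1h2ap, an H2A gene, was at 82.2, 109, 39.7, 15.6, 35.0 and 23.8 CPM, and Hist1h1b, a linker histone, at 63.5, 88.6, 27.1, 9.44, 19.8 and 13.5 CPM. Both were higher in the female than in the male library at day 21 in each treatment, which the other large members were not. The female room air library held 21 cells of the authors' proliferating T cell class and the male room air library 1, and the part of this class in the totals was not tested. Hist1h4d, an H4 gene, was at 98.0, 108, 79.3, 88.0, 75.9 and 81.8 CPM. Hist1h2bc, an H2B gene, was at 84.8, 80.8, 55.0, 51.1, 51.0 and 62.5 CPM. Hist3h2a, an H2A gene outside the main cluster, was at 27.6, 24.1, 23.5, 27.6, 25.3 and 27.1 CPM, and its groups overlapped.

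**Figure D1:**
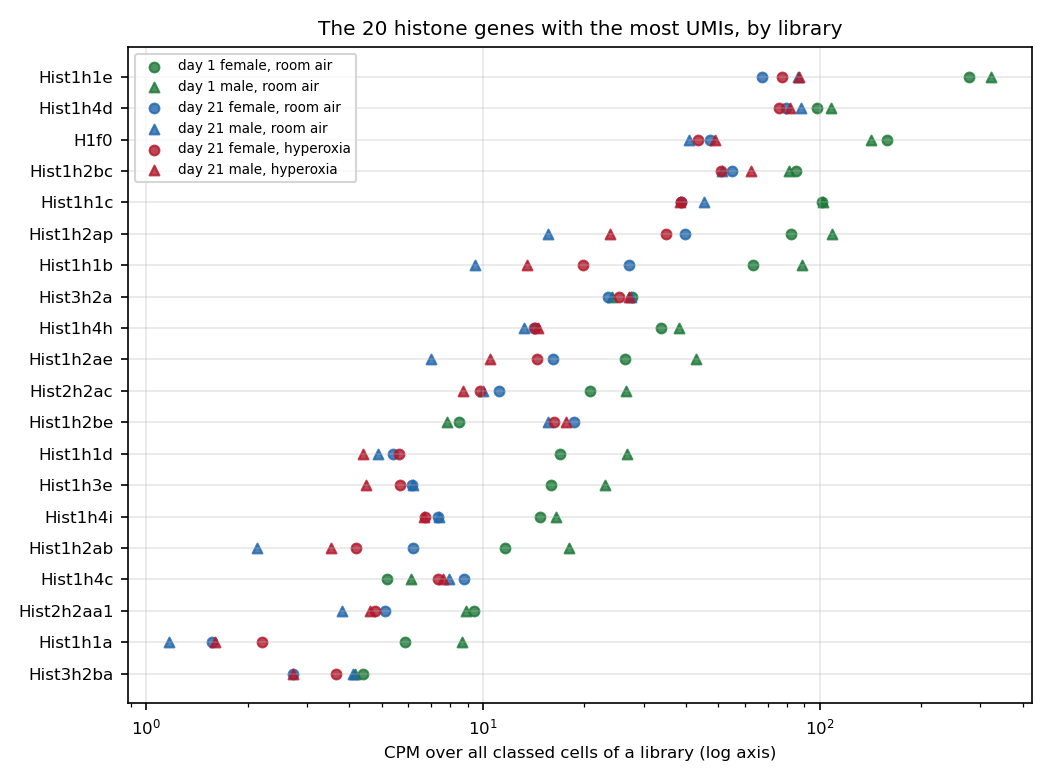
Level of the 20 members with the most UMIs in CPM over all cells with a class (log axis), with 1 point per library, coloured by condition and shaped by sex. In Hist1h1e, H1f0 and Hist1h1c both day 1 points lie above all 4 day 21 points, Hist1h2be shows the reverse, and the points of Hist3h2a overlap between 23.5 and 27.6 CPM.

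Of the 63 members, 49 were lower in both day 21 room air libraries than in both day 1 libraries, against 29% of the 21123 genes with at least 20 UMIs. A further 7 were higher in both, against 51.2% of those genes, and 7 overlapped. Between hyperoxia and room air at day 21, 11 members were lower in both hyperoxia libraries (background 19.8%), 5 were higher in both (background 29.7%) and 47 overlapped.

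Some members cannot be separated cleanly from other genes. Hist1h1e and Hist1h2be overlap on the same strand over 496 bases at the 3-prime end of Hist1h1e (chr13:23620629-23621124), where this chemistry reads, so the counts of both are uncertain. Hist3h2a lies within Trim17 on the same strand. In 28 members more than 50% of the 60-base stretches in the last 300 bases also occur in another member. All such stretches of Hist1h2ap occur in Hist1h2ao, and Hist1h3e and Hist1h3f share all of theirs, so their counts are uncertain as well. Hist1h1b, Hist1h1c, Hist1h4d, Hist1h2bc and H1f0 share none.

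Between the authors' classes, the highest levels of members in larger classes were in proliferating endothelial cells at day 1 and in NK cells. In the proliferating endothelial class, which had 107 and 101 cells and is present at day 1 only, members summed to 11986 and 16093 CPM, against a median class of 1005 and 1240 CPM in those libraries. Hist1h2ap reached 2406 and 2989 CPM there, Hist1h1b 1771 and 2361 CPM and Hist1h1e 1609 and 2170 CPM. At day 21 the small proliferating T cell class had 17356 CPM in 21 female room air cells, 1540 CPM in 1 male room air cell, 13648 CPM in 24 female hyperoxia cells and 21094 CPM in 10 male hyperoxia cells. The authors clustered these same cells, so the order of classes is a description.

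NK cells came next among the larger classes, with 3841, 4255, 2834, 1147, 913 and 1197 CPM in the fixed order. The share of NK cells scored as cycling was 38.7%, 41.2%, 35.4%, 17.7%, 10.3% and 11.3% in the same order. Here a cell counts as cycling when it holds at least 2 UMIs over 10 mitosis genes such as Mki67 and Top2a. Cells that copy DNA but hold fewer such UMIs count as other cells. The cut was not scaled to depth. Cycling cells had a median of 13831 to 17884 UMIs per library and other cells 7912.5 to 9440. In the day 1 female library 149 alveolar macrophages held 2292095 UMIs and 1136 neutrophils 4587392. Deep cells reach the cut more readily, so cycling shares are not alike between classes. Without the cycling cells the NK levels were 963, 1008, 357, 457, 404 and 408 CPM, and the female room air library at day 21 no longer stood above the other day 21 libraries. B cells had 2822 and 2811 CPM at day 1 and 461 to 597 CPM at day 21. The order of classes did not follow the cycling share throughout. Transient macrophages, a day 1 class, scored as cycling at 30.1% and 39.8% and had 637 and 959 CPM, below the median class in both libraries. Without their cycling cells they had 414 and 399 CPM.

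On the CPM scale capillary endothelium lay above the median class in all 6 libraries. General capillary cells (gCap) had 1295, 1603, 457, 581, 422 and 452 CPM and aerocytes (aCap) 1356, 1728, 531, 665, 462 and 543 CPM. Alveolar macrophages, with 16.1% to 27.9% of cells cycling, were among the lowest, with 363, 372, 232, 210, 353 and 272 CPM, and had the lowest CPM of any class with at least 50 cells in every library but the female hyperoxia one. The place of these classes turned with the scale. With the UMIs of protein-coding genes without introns as denominator, gCap and aCap lay below the median class in all 6 libraries, at ranks 12 to 16 and 15 to 18 of 17 to 20 classes. On that scale alveolar macrophages were lowest in 3 libraries, both of day 1 and the male room air one of day 21, and above the median class after hyperoxia in females. Transient macrophages were above the median class in the male library, while NK cells and the proliferating endothelial class again held the first ranks.

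Neutrophils, of which 0.3% to 1.1% of cells reached the cycling cut, had 1160, 1408, 392, 500, 506 and 533 CPM. Their leading member was Hist1h2bc with 456, 627, 177, 245, 247 and 268 CPM, where gCap had 93.3, 92.6, 41.1, 48.2, 48.4 and 46.8 CPM. Megakaryocytes, found at day 21 only, had 3663, 9038, 8551 and 5504 CPM in 1, 6, 7 and 8 cells, the first from 3 member UMIs. None of these cells scored as cycling, but the class held only 819, 9958, 17190 and 28159 UMIs in these libraries. Its member UMIs came mostly from Hist1h2bc (2442, 5021, 4479 and 2628 CPM) and Hist1h1c (1221, 2511, 2618 and 1918 CPM). The megakaryocyte values rest on very few cells.

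**Figure D2:**
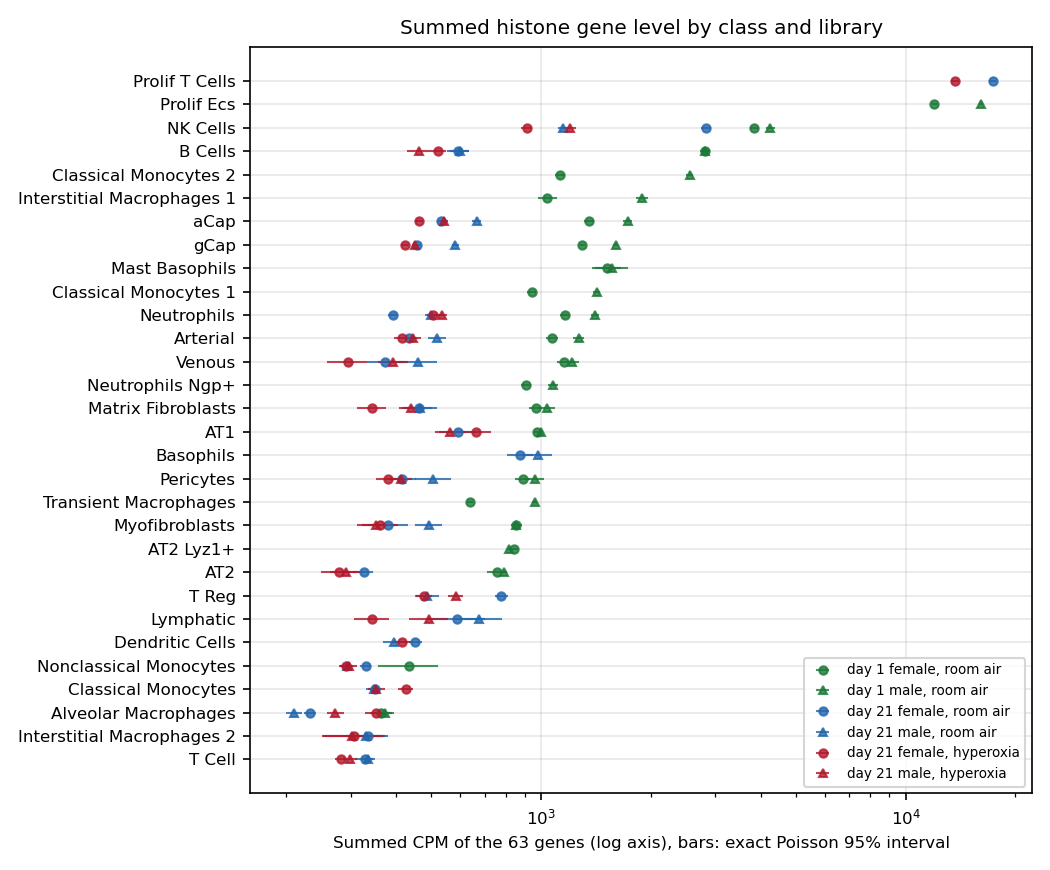
Summed CPM of the 63 members per class (rows) and library (points, log axis), for classes with at least 20 cells in the library, with bars for exact Poisson 95% intervals that cover counting error only. The proliferating T cell and proliferating endothelial classes stand at the top, and in classes present at both ages most day 1 points lie to the right of the day 21 points.

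Cycling cells were compared with the other cells of the same class and library in 7 classes that had enough of both. Of 122 member and class pairs that passed the filter on low counts, 60 were called (edgeR quasi-likelihood test, adjusted p under 0.05), and all 60 were higher in cycling cells. The same direction was called for 3.36% of all genes tested, and the median log2 difference was 0.96 for members against -0.01 for all genes. A member that is read only in cycling cells may pass the filter for that reason, so the counts describe the pairs tested and not all 63 members. NK cells had 26 of 27 members called (background 9.62%), gCap 8 of 23, T Reg cells 8 of 16, dendritic cells 7 of 17, T cells 5 of 14, alveolar macrophages 3 of 9 and classical monocytes 3 of 16.

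Hist1h2ap was higher in cycling cells of all 7 classes, by 1.28 (classical monocytes) to 5.77 (NK cells) on the log2 scale. Hist1h2ae, an H2A gene, was called in 6 of 6 classes, Hist1h1b in 5 of 6, Hist1h1e in 5 of 7, and Hist1h1c and Hist1h2bc in 4 of 7 each. H1f0 was called in gCap only, with a log2 difference of 0.48 (SE 0.093, edgeR adjusted p = 0.0023), and had -0.06 (SE 0.23, edgeR adjusted p = 0.902) in NK cells. Hist3h2a was called in 0 of 6 classes, with values from -0.93 to 0.40.

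The largest differences were in NK cells. There Hist1h1b was at 1223, 996, 1170, 565, 711 and 905 CPM in cycling cells and at 32.1, 15.9, 1.44, 5.41, 5.07 and 6.41 CPM in the others. The log2 difference was 6.58 (SE 0.23, edgeR adjusted p = 1.1e-12), and the states did not overlap in any library. Pairs named here had to have the same direction in every library, so this is no separate evidence. Hist1h2ap was at 1524, 1163, 1346, 640, 954 and 1107 CPM against 61.0, 19.4, 20.1, 12.7, 12.8 and 12.2 CPM, a log2 difference of 5.77 (SE 0.18, edgeR adjusted p = 2.9e-13). Hist1h2ab (6.10, SE 0.22) and Hist1h3c (5.87, SE 0.31) lay between these, and Hist1h2ae (5.61, SE 0.17) came after them. Each of the 5 was called under all 11 alternative settings tried, and each had at least 20 UMIs in the cycling cells of every library. The H3 gene Hist1h3b, below that limit and named after its values were seen, had 30, 28, 27, 13, 13 and 5 UMIs in cycling cells and 0 in the others in every library.

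The NK cell differences were also set against the annotated 3-prime ends. Only members that passed the filter on low counts enter here, and a member with few UMIs passes more readily if it is high in cycling cells, so the values describe these 27 and test nothing. The 15 members with fewer than 300 annotated bases after the stop codon had a median log2 difference of 5.34, the lowest being 2.30. For the 12 with at least 300 bases the median was 2.17 and the highest 3.32. Spearman's rho between the 2 measures was -0.66 over 27 members that share the same libraries and cells, given as a description.

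**Figure D3:**
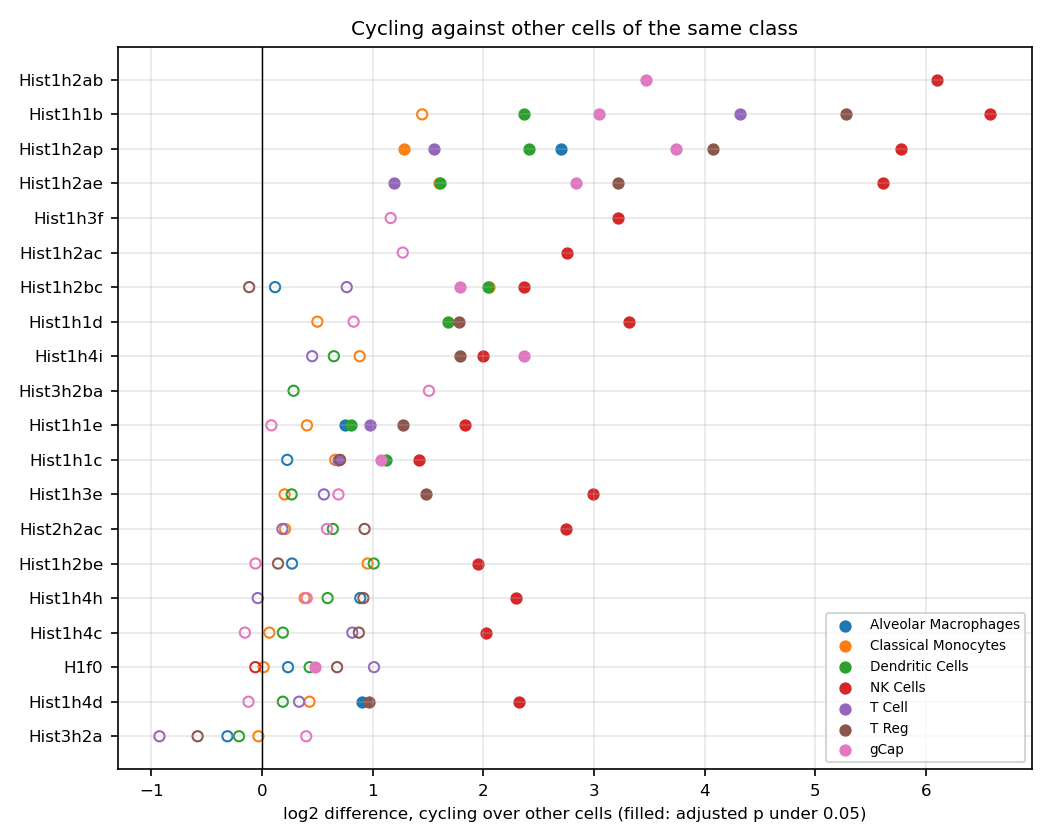
Log2 difference between cycling and other cells of a class (x axis) for members tested in several classes (rows), with 1 point per class, filled where edgeR called it. Hist1h2ap lies above 1.2 in all 7 classes, NK cells give most of the largest values, and Hist3h2a has only open points between -0.93 and 0.40.

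The comparison of day 21 with day 1 in room air was read first when the genes were chosen, so its direction is not independent evidence. In 10 classes with at least 50 cells in each of the 4 libraries, 179 of 235 pairs tested were called lower at day 21 (25.7% of all genes tested) and 10 higher (28.6%). DESeq2 called 118 lower and 3 higher, where over all genes it called 30441 of 109029 pairs, 16949 of them higher. A member with few UMIs may pass the filter on low counts only through the age at which it is higher. The counts thus describe the pairs tested and not all 63 members. The median log2 change was -1.73 for members (-1.71 with the 2 pairs at 0 UMIs in both day 21 libraries set to their bound) and 0.01 for all genes. All 52 pairs of linker histones were called lower, as were 48 of 62 H2A, 29 of 47 H2B, 21 of 31 H3 and 29 of 43 H4 pairs. The sexes stand in for replicates in this fit, which has 1 residual degree of freedom. Its residual mixes the spread between pools of mice with any sex difference in the change with age.

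Genes without long introns were lower at day 21 in general. Protein-coding genes without introns outside the histone set had a median log2 change of -0.57 over 1523 pairs, those with at most 10000 bases of intron -0.50, and those with more than 50000 bases 0.91. When libraries were scaled on the genes without introns, the median of all genes moved to 0.58, and 46.1% of all genes were called higher and 9.86% lower, so that 82.4% of calls were higher against 52.7% before. Members had a median of -1.19 on that scale, with 144 pairs lower and 22 higher. Of the linker histone pairs 48 of 52 were still called lower and 0 higher, while H2A had 38 lower and 3 higher, H2B 24 and 10 of 47, H3 16 and 3 of 31, and H4 18 and 6. Upper-quartile scaling moved the median of all genes to -0.14, and 178 of the 179 lower pairs were called lower there too. Of 179 pairs called lower, 135 could be tested without cycling cells, and 117 of those were again called lower. In that setting 56247 of 104739 pairs over all genes were called, 29524 of them higher. Cells that copy DNA but lie under the mitosis cut remain in these sums, and their part was not tested.

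H1f0, Hist1h1b, Hist1h1c, Hist1h1e, Hist1h2ap and the H4 gene Hist1h4h were called lower in all 10 classes. Hist1h1e had changes from -2.74 (neutrophils) to -1.30 (NK cells). In gCap Hist1h1e was at 430, 595, 81.1 and 134 CPM in the 4 room air libraries, a log2 change of -2.40 (SE 0.12, edgeR adjusted p = 2.9e-23). Its hyperoxia libraries were at 79.2 and 96.9 CPM. In aCap it was at 501, 710, 124 and 181 CPM, and in neutrophils at 113, 119, 19.2 and 18.4 CPM. In alveolar macrophages Hist1h1e was at 62.8, 75.0, 15.97 and 14.2 CPM. Day 1 and day 21 libraries were apart in each of these classes.

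Markers of other cell types moved with age in the same sums. The summed level of 4 epithelial markers (Epcam, Cdh1, Nkx2-1 and Sftpc) was lower in both day 21 room air libraries than in both day 1 libraries in all 10 classes. It went from 615 and 882 to 282 and 195 CPM in gCap, from 336 and 458 to 165 and 156 CPM in alveolar macrophages, from 533 and 928 to 179 and 107 CPM in neutrophils and from 355 and 480 to 94.2 and 83.1 CPM in B cells. All 4 were detected at day 1 in these classes. Neutrophil markers were lower in 6 of 9 other classes, as in gCap (1067 and 418 to 181 and 65.4 CPM) and alveolar macrophages (516 and 523 to 293 and 104 CPM). Stromal markers were lower in 5 of 8 classes, immune markers in 3 of 6 and endothelial markers in 0 of 6. Endothelial markers were higher at day 21 in 2 of the 6. They went from 258 and 218 to 623 and 471 CPM in B cells and from 411 and 260 to 1392 and 2005 CPM in matrix fibroblasts. Immune markers were higher in 1 of 6, the myofibroblasts. With called doublets left out, 166 of 220 pairs were lower and 10 higher, and Hist1h1e in gCap had -2.46. Over all genes 57940 of 104922 pairs were called in that setting, 30461 of them higher. The part of these markers' cells or their free RNA in the falls was not tested.

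H1f0 was at 271, 282, 91.7 and 103 CPM in gCap (-1.63, SE 0.12), at 231, 258, 57.6 and 51.5 CPM in aCap (-2.25, SE 0.16) and at 82.0, 70.0, 25.3 and 27.7 CPM in alveolar macrophages (-1.87, SE 0.16). Its largest fall was in B cells, from 105 and 96.5 CPM to 8.03 and 4.56 CPM, with a log2 change of -4.20 (SE 0.29, edgeR adjusted p = 6.4e-06). In neutrophils H1f0 went from 21.4 and 13.9 CPM to 3.33 and 1.98 CPM (-2.83, SE 0.28).

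Hist1h2ap in gCap was at 22.8 and 33.7 CPM at day 1 and at 2.23 and 2.22 CPM at day 21 (-3.73, SE 0.21). Without cycling cells the change was -3.42. Its levels in neutrophils were 98.7, 97.0, 14.6 and 14.6 CPM, a log2 change of -2.87 (SE 0.14). In alveolar macrophages it was at 23.6, 21.5, 5.75 and 4.45 CPM (-2.49, SE 0.27), or -1.25 without cycling cells. Hist1h1c in gCap was at 109, 133, 23.2 and 28.9 CPM (-2.33, SE 0.13). The cycling share in the 4 room air libraries was 5.4%, 7.5%, 1.6% and 1.3% for gCap, against 0.7%, 0.3%, 1.1% and 0.9% for neutrophils.

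In myofibroblasts a pair of linker histones was at 0 at day 21, so that only a lower bound of their fall can be given. Hist1h1b in this class had 106 and 71 UMIs at day 1 and 0 in both day 21 libraries. Against a floor of 3 UMIs per library, that is at least 2.33-fold lower in females and at least 5.85-fold lower in males. Hist1h1d, a linker histone, went from 48 and 29 UMIs to 0 in the same class, at least 1.05-fold and 2.39-fold lower. DESeq2 called neither, and Hist1h1d was also lost without the male room air library of day 21 (highest adjusted p over its alternatives 0.0799 for Hist1h1d and 0.293 for Hist1h1b).

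Among pairs with at least 20 UMIs in both day 1 libraries and with UMIs at day 21, the 3 largest fitted falls were in B cells. There the H3 gene Hist1h3c went from 43.7 and 31.9 CPM to 1.46 and 0.51 CPM, a log2 change of -5.40 (SE 0.48, edgeR adjusted p = 2.3e-05). Hist1h2bb, an H2B gene, went from 20.5 and 25.4 to 0.73 and 0.51 CPM (-5.26, SE 0.60), and their day 21 values rest on 2 and 1 UMIs for Hist1h3c and on 1 each for Hist1h2bb. Hist1h2ab went from 96.3 and 105 to 10.2 and 1.52 CPM (-4.43, SE 0.45). All 64 and 44 day 1 UMIs of Hist1h3c lay in cycling cells, 10 and 8 of them. For Hist1h2ab 139 of 141 and 143 of 145 UMIs lay in cycling cells. The share of B cells that cycled was 25.4%, 33.3%, 8.2% and 4.3% in the 4 room air libraries.

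Not every member was lower. Hist1h2be, the H2B gene with the longest introns of the set, was called higher in 7 of 10 classes and lower in NK cells (-1.41). In alveolar macrophages it was at 3.49 and 1.56 CPM at day 1 and 13.0 and 11.8 CPM at day 21 (2.001, SE 0.40, edgeR adjusted p = 0.0002), with 13.9 and 8.40 CPM after hyperoxia. In arterial cells Hist1h2be was at 12.7, 9.05, 23.3 and 28.1 CPM (1.13, SE 0.28) and in aCap at 16.1, 12.8, 29.4 and 27.5 CPM (0.89, SE 0.23). DESeq2 called 2 of the 7 rises, in alveolar macrophages (adjusted p = 0.0344) and gCap (adjusted p = 0.0077). The other 5, the arterial and aCap rises among them, had adjusted p from 0.092 to 0.418 with DESeq2, and the fall in NK cells had 0.106.

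The H3 genes Hist2h3c1 and Hist2h3c2 were called higher in gCap. Hist2h3c1 was at 1.41, 0.82, 4.82 and 3.85 CPM (1.82, SE 0.36) and 4.47 and 3.37 CPM after hyperoxia. Hist2h3c2 was at 0.63, 0.61, 1.57 and 1.88 CPM (1.32, SE 0.50), and lost its call under DESeq2 and when any of the 4 libraries was left out. Hist1h4c, an H4 gene, was called in 0 of 8 classes (log2 changes -0.47 to 0.77). Hist3h2a was called lower in 2 of 10, with 35.9, 36.1, 39.5 and 50.2 CPM in gCap and overlap in most classes. Hist1h4d was called lower in 8 of 10, with 141, 163, 89.6 and 129 CPM in gCap (-0.62, SE 0.12), and its change in myofibroblasts turned from -0.54 to 0.51 when scaled on genes without introns.

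**Figure D4:**
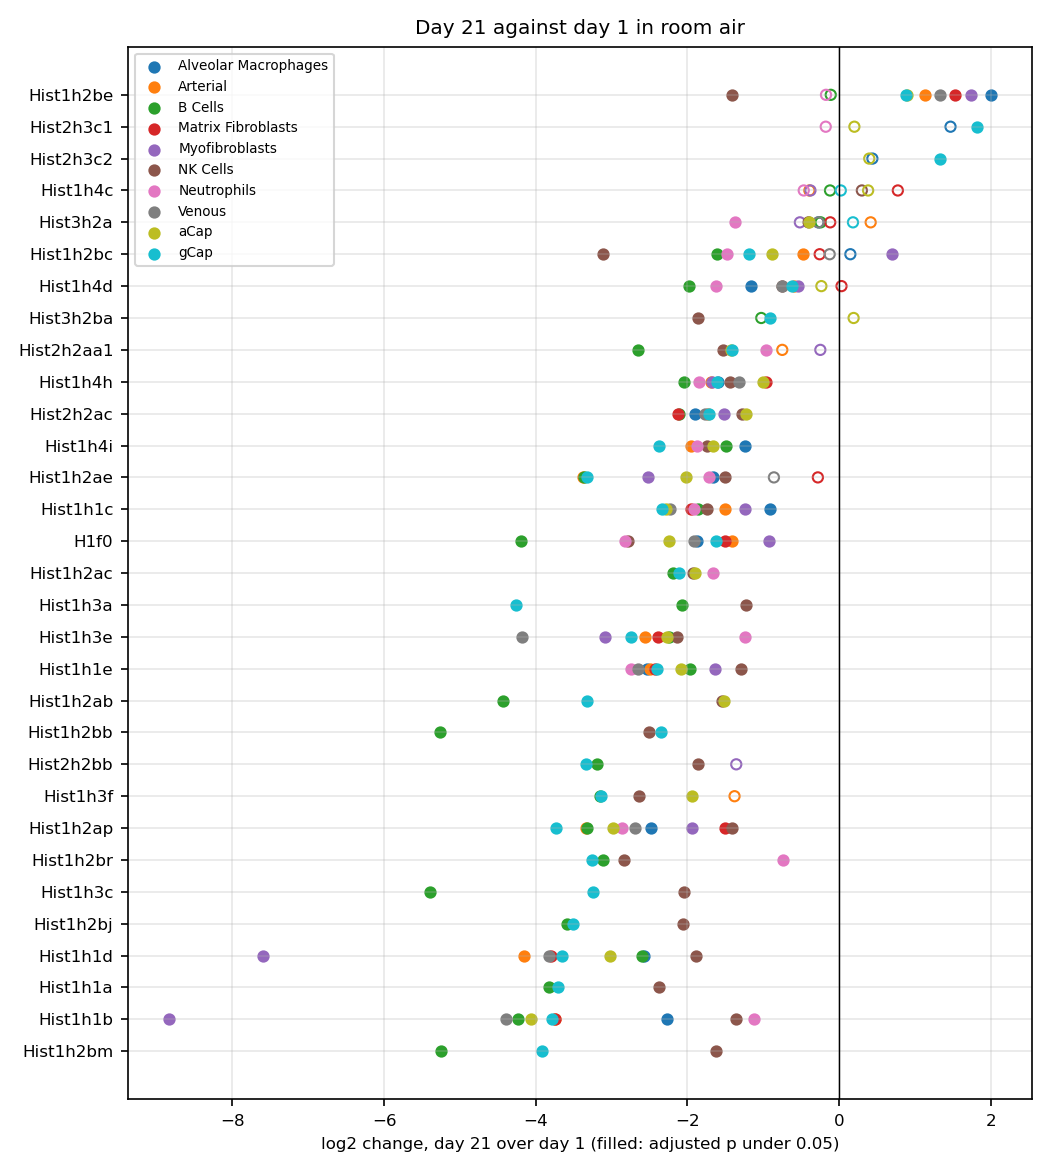
Log2 change from day 1 to day 21 in room air (x axis) for members tested in several classes (rows), with 1 point per class, filled where edgeR called it. The linker histones Hist1h1b to Hist1h1e and H1f0 lie below 0 in every class tested, and Hist1h2be lies above 0 in its 7 classes called higher. The myofibroblast points of Hist1h1b and Hist1h1d, with 0 UMIs at day 21, are fitted values and no bound.

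Hyperoxia and room air at day 21 were compared in 14 classes, which asks what remains after the exposure that ended on day 5. Of 274 pairs tested, 8 were called higher after hyperoxia (background 1.63%) and 2 lower (background 0.654%). The median log2 difference of members was -0.18, against 0.00 for all genes. At an unadjusted p under 0.05 there were 15.3% of member pairs, against 9.58% of all genes. The balance of directions depended on single libraries and on the filter. With the male or the female room air library left out, 1 sample remained in that arm, and more pairs were called lower than higher. Without a filter on low counts the calls were 8 higher and 12 lower. Over all genes 6208 of 267610 pairs were called without that filter, 4194 of them higher.

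Alveolar macrophages held 6 of the 8 higher calls, out of 20 members tested (background in that class 9.1%). Hist1h1b was at 0.93 and 2.44 CPM in room air and 19.1 and 11.5 CPM after hyperoxia, from 11, 17, 44 and 56 UMIs. The log2 difference was 3.18 (SE 0.44, edgeR adjusted p = 5.9e-06). Hist1h2ap was at 5.75 and 4.45 CPM against 44.8 and 15.98 CPM, a log2 difference of 2.44 (SE 0.26, edgeR adjusted p = 1.1e-07). Hist1h2ae (2.24, SE 0.45), Hist1h2ab (2.02, SE 0.63), Hist1h3e (1.95, SE 0.56) and Hist1h1e (0.81, SE 0.19) were also called. The room air and hyperoxia libraries did not overlap in any of the 6. These were picked by their calls on the same libraries, so this is no separate evidence.

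Few cells carried these UMIs. For Hist1h2ap, 86 of 103 UMIs in the female hyperoxia library came from 4 cells with at least 5 UMIs each, and 56 of 78 in the male hyperoxia library from 3 cells. All of these cells were cycling, and no alveolar macrophage in room air at day 21 held as many. At day 1, 1 cell held 32 of 54 UMIs in females and 1 cell 38 of 69 in males. For Hist1h1b, 40 of 44 and 46 of 56 UMIs came from 4 and 3 cells. The class had 609 and 348 cells in room air and 136 and 308 after hyperoxia, of which 16.3%, 22.7%, 27.9% and 18.2% cycled. Without cycling cells the Hist1h2ap difference was 0.07 (edgeR adjusted p = 0.965).

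Scrublet called 2.30% and 2.87% of these cells doublets in room air and 24.3% and 17.2% after hyperoxia. All 4 endothelial markers were detected in each library, with a summed level of 35.5 and 53.1 CPM in room air and 573 and 379 CPM after hyperoxia. With called doublets left out, the log2 difference was 2.83 for Hist1h2ap and 3.69 for Hist1h1b. Of the mitosis genes, Top2a (2.91, SE 0.25) and Mki67 (1.58, SE 0.20) were called higher in the same class. Pcna, 1 of 20 S phase genes listed, had 0.00 (SE 0.11) and does not stand for that list. Over all classes the only S phase gene called after hyperoxia was Rrm2, higher in 1 of 6 classes tested. The calls of Hist1h2ae and Hist1h1e were lost without the female hyperoxia library and without cycling cells, and that of Hist1h1e also under DESeq2 and without the male room air library. DESeq2 called Hist1h1b, Hist1h2ap and Hist1h2ae in this class and no other member pair after hyperoxia.

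**Figure D5:**
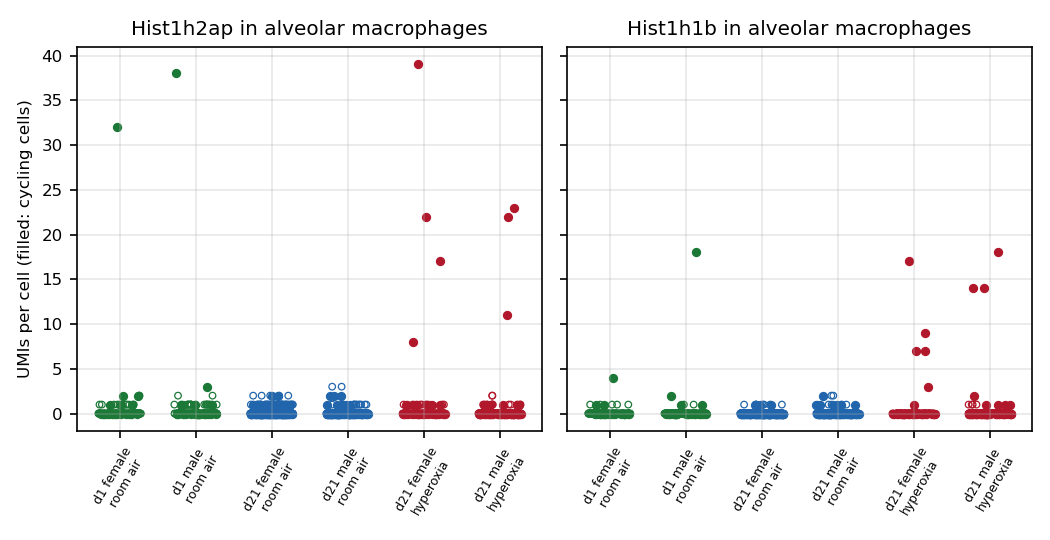
UMIs of Hist1h2ap (left) and Hist1h1b (right) in each alveolar macrophage of the 6 libraries, with 1 point per cell, spread sideways at random and filled for cycling cells. Cells with at least 5 UMIs of Hist1h2ap number 4 and 3 in the hyperoxia libraries, 0 in both room air libraries of day 21 and 1 in each day 1 library.

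The remaining calls were single. Hist1h2ap in classical monocytes was at 16.9 and 14.8 CPM in room air and 36.6 and 16.6 CPM after hyperoxia (0.77, SE 0.18). In the female hyperoxia library 1 cell held 53 of the 156 UMIs, and the call was lost under 7 of 11 alternatives, leaving out that library among them. Hist1h2bc was higher in arterial cells, with 31.8 and 43.0 CPM against 55.5 and 49.7 CPM (0.52, SE 0.15), a pair that DESeq2 did not call. Hist1h1b was lower in gCap, with 1.51 and 2.65 CPM against 0.55 and 0.26 CPM (-2.28, SE 0.47, edgeR adjusted p = 0.0048), a call lost under 5 of 11 alternatives. Hist3h2a was lower in nonclassical monocytes, with 12.1 and 17.5 CPM against 8.33 and 9.95 CPM (-0.71, SE 0.18, edgeR adjusted p = 0.0406), lost under 6 of 11. NK cells had 0 of 34 members called, with a median of -0.79, and also 0 of all 10661 genes.

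Females and males were compared over all 6 libraries in 10 classes. Of 178 pairs, 1 was called, Hist1h1e in arterial cells (0.0535% of all genes were called lower in females). It was at 368, 63.6 and 66.2 CPM in the female and 489, 101 and 89.0 CPM in the male libraries of the 3 conditions, lower in females in 3 of 3 (-0.52, SE 0.097, edgeR adjusted p = 0.0454). A pair had to have the same direction in all 3 conditions to be named, so that direction is no separate evidence. The call was lost under 6 of 13 alternatives. At an unadjusted p under 0.05 there were 26 pairs, or 14.6%, against 5.41% of all genes. For the interaction of sex and hyperoxia edgeR called 0 of 285 pairs (background 0.428%), and DESeq2 also called 0. At an unadjusted p under 0.05 there were 23, or 8.07% of member pairs, against 4.71% of all genes.

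Genes that serve the histones were read from the same fits, from lists chosen with earlier results of these data known. Of 10 replacement and variant histone genes, several of which are made outside S phase and have poly(A) tails, 82 of 94 pairs were called lower at day 21 and 0 higher, with a median log2 change of -1.02, and 44 lower (46.8%) and 5 higher (5.32%) when scaled on genes without introns, where 9.86% of all genes were lower and 46.1% higher. H3f3b, an H3.3 gene, was called lower in 10 of 10 classes and H3f3a in 9 of 10, at 2148, 2050, 835, 949, 821 and 879 CPM and at 1844, 1586, 1320, 1460, 1274 and 1254 CPM over all cells with a class. In cycling cells 26 of 59 pairs of this list were higher (background 3.36%). H2afz, the H2A.Z gene, was lower with age in 10 of 10 classes and higher in cycling cells of 6 of 7, H2afj in 10 of 10 and 0 of 7. H3f3a was higher in cycling cells of 1 and H3f3b of 0 of 7.

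Histone message processing genes had 37 of 138 age pairs called, 24 lower and 13 higher, both below the shares over all genes (25.7% and 28.6%). Scaled on genes without introns, this list had 4 lower (2.90%) and 52 higher (37.7%), again both below the shares over all genes on that scale (9.86% and 46.1%). Slbp was lower in 2 of 10 classes and Lsm10, a U7 particle protein, in 8 of 10. In cycling cells 4 of 98 pairs of this list were higher, close to the share over all genes, among them Slbp in NK cells (1.21, SE 0.11). Histone chaperones had 60 age pairs lower and 12 higher of 158, and 16 lower (10.1%) and 45 higher (28.5%) on that scale, where the lower share is close to that over all genes and the higher share below it. They had 29 of 108 higher in cycling cells. S phase genes had 69 of 87 pairs higher in cycling cells, and 56 lower and 11 higher of 129 with age (21 and 28 on that scale, 16.3% and 21.7%). Mitosis genes, left out of the cycling test because they set the state, had 47 lower and 2 higher of 69 with age (35 and 4 on that scale, the lower ones 50.7%). After hyperoxia the calls were 0 of 191 for processing, 3 of 122 for variants, 1 of 216 for chaperones, 1 of 175 for S phase and 9 of 70 for mitosis, where 2.28% of all genes were called in either direction.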

How the data were processed

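The authors deposited whole-number matrices of UMI counts, with a table that gives the barcodes a class or none. The counts were made with Cell Ranger 6.0.0 (day 1) and 7.0.1 (day 21), per the file headers, and the submitters' processing notes name Cell Ranger 6.0.0, Seurat 4.1.1 and mm10. Intron counting and doublet removal are not given in the sources used here. Gene models were GENCODE M21 (GRCm38), with 99.6% of genes matched by ID.

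Counts of cells with a class were summed per library and class. Classes needed 50 cells in every library compared. The test was edgeR 4.0.16 (filterByExpr, TMM, quasi-likelihood, R 4.3.3, limma 3.58.1) over all genes, with sex, condition or library as the covariate and Benjamini-Hochberg adjustment within a class. Cycling cells were compared in classes with 20 cycling and 20 other cells in at least 3 libraries. Poisson intervals (95%) cover counting error only. The members and lists were chosen with earlier results of these data known.

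Members named in every library were the 8 with the most UMIs, the 5 largest called rises and falls per comparison (20 UMIs in each library of the higher side, same direction in both sexes) and those called in the most classes. Alternatives were DESeq2 1.42.0, upper-quartile scaling, scaling on genes without introns, no filter, no covariate, each library left out, a minimum of 1 mitosis UMI for cycling cells, and doublets (Scrublet in scanpy 1.11.5) or cycling cells left out. Doublets stayed in otherwise. The fits were tested on simulated counts of gCap only, with a single fixed dispersion and changes set only in genes averaging at least 20 UMIs. Smaller classes and members with few UMIs were thus not covered. Barcodes without a class entered no test.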

Additional observations from a re-analysis of the deposited data

Results flagged for a closer look

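Between classes, 3 members were called in opposite directions under the same contrast, and these differences were not tested. Hist1h2bc with age had a log2 change of 0.691 in myofibroblasts and -3.11 in NK cells. Hist1h2be with age had 2.001 in alveolar macrophages and -1.413 in NK cells. Hist1h1b after hyperoxia had 3.179 in alveolar macrophages and -2.277 in gCap.

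Barcodes to which the authors gave no class entered no comparison, and they also carried histone messages. Their summed members were 1037.74 and 1009.37 CPM at day 1, 1204.26 and 866.424 CPM in room air at day 21 and 818.986 and 684.297 CPM after hyperoxia. At day 21 each of these was above the level in cells with a class of the same library, 523, 476, 498 and 499 CPM, while at day 1 it was below it (1130 and 1288 CPM). Among these barcodes 11.8%, 16.5%, 11.4%, 9.8%, 9.9% and 10.4% scored as cycling, against 3.2% to 11.1% of cells with a class. Without the cycling barcodes the levels were 758, 759, 369, 361, 323 and 339 CPM. Many of these barcodes had a higher share of mitochondrial UMIs than any cell with a class. In the fixed order such barcodes held 47.9%, 55.3%, 27.9%, 34.7%, 27.1% and 29.2% of the UMIs without a class.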

How the results depend on the processing

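The age calls fell from 189 to 121 under DESeq2 and were within 1.5 times of 189 under every other alternative. Over all genes they went from 59221 to 30441 under DESeq2. Cycling calls were 60, and 112 without a filter on low counts (3432 and 6063 over all genes). Hyperoxia calls were 10, with 3 under DESeq2, 2 without cycling cells, 4 without the covariate and 20 without a filter. Over all genes these were 3536, 1161, 3021, 1590 and 6208. Sex calls were 1, with 2 under DESeq2, 0 without the covariate, 8 without a filter and 0 scaled on genes without introns. Over all genes these were 101, 89, 13, 933 and 99. Interaction calls were 0, and 4 each with doublets left out, without a filter and scaled on genes without introns. Over all genes these were 515, 408, 771 and 417. Leaving out 1 library gave 34 to 54 cycling, 5 to 21 hyperoxia and 1 to 6 sex calls. A cycling fit without a library was run only in the classes that held it, so not all of its counts are comparable with the 60. The lowest cycling counts came without a day 1 library, where only alveolar macrophages, NK cells and gCap were fitted. Those classes had 3, 26 and 8 calls in the main fit. The lowest hyperoxia count came without the female hyperoxia library and the highest without the male room air library. The log2 ratio of summed members, day 21 over day 1, was -1.11 in females and -1.44 in males. It was -0.78 (female) with genes without introns as denominator, -1.16 and -1.39 without doublets and -1.15 and -1.03 without cycling cells. In males the member UMIs equalled 14.5% of the UMIs of genes without introns at day 1 and 5.37% in room air at day 21. The female shares were 10.6% and 6.14%. Genes without introns themselves held 1.07% and 0.852% of UMIs in female cells with a class at these ages. In males they held 0.887% and 0.886%, so this denominator hardly moved there and the female value of -0.78 does not stand for males. Of 248 alternatives for 23 named pairs, 207 kept direction and call, 41 lost the call and 0 reversed. The cause of these shifts was not tested. No paired analysis was possible because every group had a single library and so a single replicate number, beyond the blocks in the fits themselves (sex for age and hyperoxia, library for cycling). With 1 library per group the age, hyperoxia and interaction fits have 1 residual degree of freedom and the sex fit 2, so they lean on the spread estimated across genes, while the cycling fits have 2 to 5. Where a library was left out the lone sample of an arm was assumed to vary like the others.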
